A study of Sus scrofa with 18 samples.

Results

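HOX genes encode homeodomain transcription factors that lie in 4 clusters, HOXA to HOXD, and are numbered by paralogue group from the 3′ end of a cluster (group 1) to its 5′ end (group 13). In the embryo they are switched on in that order along the head to tail axis, and adult connective and adipose cells keep much of the pattern of the body level from which they came. HOX proteins bind DNA together with the TALE homeodomain proteins (PBX, MEIS and PKNOX), Polycomb complexes hold silent HOX genes in a closed state, trithorax proteins keep active ones open, and retinoic acid acts on the 3′ genes during development. In fat, the set of HOX genes in use is known to differ between depots, with the genes of the 5′ end typical of depots near the hip.

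The HOX genes were taken as every locus of the deposited expression table with a HOX symbol among its gene names, and for a symbol with several loci the one with the highest mean level. This gave 29 loci with 32 symbols, of 27883 loci in all: 6 loci of HOXA with 9 symbols, 10 of HOXB, 6 of HOXC and 7 of HOXD. The genes were measured by RNA sequencing of ribosome-depleted RNA in backfat from the thickest point at the shoulder of 18 castrated male Ningxiang pigs, an indigenous Chinese breed with a high fat content. Pigs were sampled every 60 days from 60 to 360 days of age, with 3 pigs at each of these 6 stages, and no pig received a treatment. The pigs of a stage were full sibs and the litters of different stages were related through 1 parent, so stage and litter cannot be told apart, and p-values measure the spread between sibs.

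Each library held between 74077094 and 84236689 counts. The adipocyte markers were high throughout (7 of 7 measured, with a summed level of 363 to 686 FPKM, fragments scaled to transcript length and library size, as the authors deposited them). The skin markers (4 of 5 measured) summed to 0.722 to 2.42 FPKM, a level like that of many HOX loci, nearly all of it KRT10 (0.709 to 2.39 FPKM), with KRT14 at most 0.326 FPKM and KRT1 and DSG1 at or near 0. Markers of fibroblasts and progenitors (8 of 8, 283 to 2063 FPKM), endothelium (5 of 5, 80.0 to 127 FPKM) and macrophages (5 of 5, 23.6 to 58.3 FPKM) were also present, so each value below is a mean over several cell types. Skeletal muscle markers (5 of 7 measured) summed to 177 FPKM in pig 2 at 120 days, 341 FPKM in pig 1 at 180 days and 33.3 FPKM in pig 1 at 240 days, against 0.773 to 12.4 FPKM elsewhere. Genes of the Y chromosome summed to 114 to 244 CPM (counts scaled to the library total) in 11 libraries and to 0.173 to 11.7 CPM in the other 7 (pigs 1 and 3 at 60 days, pig 2 at 120 days, all 3 pigs at 180 days and pig 2 at 300 days), which goes against the description as castrated males. The 11 hold 1 pig at 60 days, 2 at 120 and 2 at 300 days and none at 180 days, so a fit on them has few pigs to a stage, and values that turn on the other 7 are named below.

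The HOX genes of the middle of each cluster were transcribed in shoulder backfat, and those of the 5′ end were barely detected. Of the 12 loci whose first symbol is of groups 3 to 8, 9 passed the filter for testing (at least 0.5 FPKM in at least 3 libraries), and their mean levels reached 6.69 FPKM. None of the 7 loci of groups 11 to 13 passed it, and their highest value in any library was 0.420 FPKM (HOXA11 in pig 1 at 240 days). In all, 13 of the 29 loci passed, 21 had at least 10 counts in at least 3 libraries, and 8 did not reach that count. The loci that passed were 2 of HOXA, 6 of HOXB, 2 of HOXC and 3 of HOXD. HOX transcripts were not abundant: 4 of the 13 lay above the median over all tested loci of 1.73 FPKM.

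**Figure D1:**
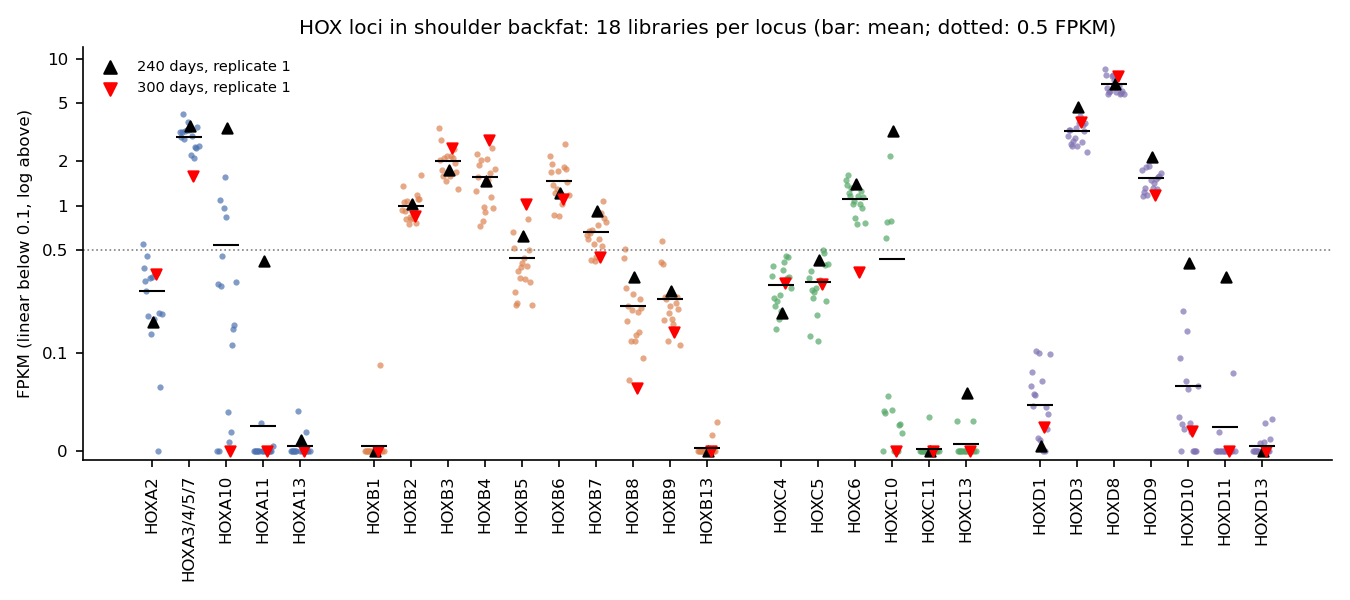
FPKM (linear below 0.1, logarithmic above) of the HOX loci in 18 libraries, ordered by cluster from the 3′ to the 5′ end, with a bar at the mean of the libraries and a dotted line at 0.5 FPKM. The black triangle is pig 1 at 240 days, highest for HOXA10, HOXA11, HOXC10, HOXD10 and HOXD11, and the red triangle is pig 1 at 300 days, lowest for the locus of HOXA3 to HOXA7 and for HOXC6.

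Along the HOXD cluster (chromosome 15 of Sscrofa11.1) the level rose and fell with position. HOXD1, the 3′ member, had a mean of 0.0462 ± 0.0348 FPKM (SD over 18 libraries, as for each mean of this kind), and HOXD3 (chr15:81937727-81973631) had 3.21 ± 0.611 FPKM. HOXD8 (chr15:81930949-81935593) was the highest HOX locus at 6.69 ± 0.904 FPKM, and HOXD9 (chr15:81923870-81926315) had 1.53 ± 0.299 FPKM. Beyond it the level dropped to 0.0656 ± 0.0996 FPKM for HOXD10, 0.0237 ± 0.0783 FPKM for HOXD11 and 0.00499 ± 0.00993 FPKM for HOXD13. The 18 values of HOXD8 (5.73 to 8.54 FPKM) lay entirely above those of HOXD3 (2.30 to 4.67 FPKM), which was the sole neighbouring pair in the order of the 13 loci whose ranges did not overlap. The HOXD3 locus also carries the gene of the microRNA ssc-mir-10b and an Ensembl gene that the RefSeq table of the same assembly names HOXD4, so its value cannot be divided among them.

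The HOXB cluster (chromosome 12) had the most tested loci, at lower levels. HOXB3 (chr12:24801048-24806936) had 2.02 ± 0.504 FPKM, HOXB4 (chr12:24830453-24832119) 1.57 ± 0.603 FPKM and HOXB6 (chr12:24849703-24858742) 1.47 ± 0.469 FPKM. HOXB2 (chr12:24796186-24799536), the one tested locus of groups 1 and 2, had 0.990 ± 0.228 FPKM, HOXB7 (chr12:24860114-24865326) 0.658 ± 0.184 FPKM and HOXB5 (chr12:24844073-24847845) 0.440 ± 0.218 FPKM. HOXB8 and HOXB9 stayed under the filter at 0.207 ± 0.120 and 0.232 ± 0.119 FPKM, and HOXB1 and HOXB13, at the ends of the cluster, had counts of at most 8 and 7 in any library. The order within HOXB was loose: HOXB3 exceeded HOXB4 in 12 of 18 libraries, and HOXB4 rested on 61 to 226 counts a library. HOXB2 and HOXB3 overlap a second assembled locus on the other strand that also carries the HOXB3 name (mean 0.651 FPKM), and HOXB5 and HOXB6 overlap one that carries the HOXB5 name (0 to 0.565 FPKM). Whether counting used strand is not given in the sources used here, so reads of these pairs cannot be told apart.

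In the HOXA cluster (chromosome 18), HOXA3, HOXA4, HOXA5 and HOXA7 share 1 assembled locus (chr18:45414189-45469740), with 2.95 ± 0.632 FPKM for the 4 together. HOXA5 is known as a regulator of adipocyte differentiation in mouse and human fat, but its own level cannot be read from this locus, which is overlapped on the other strand by a further locus named HOXA3 (mean 1.35 FPKM). HOXA2 had 0.261 ± 0.138 FPKM. HOXA10 (chr18:45393945-45403308) had 0.536 ± 0.842 FPKM, an SD larger than its mean. HOXA11 and HOXA13, limb and urogenital genes of the 5′ end, had 0.0252 ± 0.0988 and 0.00426 ± 0.0103 FPKM.

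In the HOXC cluster (chromosome 5), HOXC6 (chr5:19230724-19243498), a gene of the thoracic level, had 1.11 ± 0.305 FPKM and HOXC10 (chr5:19197808-19202972), a gene of the lumbar level and of gluteal fat in humans, had 0.434 ± 0.889 FPKM. HOXC4 and HOXC5 had 0.290 ± 0.0965 and 0.303 ± 0.108 FPKM, and HOXC11 and HOXC13 had at most 4 and 6 counts in any library. Summed over its loci, HOXD had 9.80 to 14.3 FPKM in the 18 libraries, HOXB 5.10 to 9.86, HOXA 2.24 to 7.59 and HOXC 0.946 to 5.32. HOXA and HOXC are understated there, because the deposited names do not label HOXA9, HOXC8 and HOXC9. The order of these sums also rests on the length by which FPKM divides each locus. In counts, the locus of HOXA3 to HOXA7 had a mean of 13141 a library, above HOXD3 (7006) and HOXD8 (2711).

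A further 3 loci have no HOX name in the deposited table and were identified by their Ensembl IDs in the RefSeq table, after the values had been seen. HOXC8 (chr5:19222185-19226014) had 1.05 ± 0.350 FPKM and HOXC9 (chr5:19212982-19216717) 0.479 ± 0.229 FPKM. The median was 1.15 FPKM for HOXC6, 1.10 for HOXC8, 0.503 for HOXC9 and 0.0323 for HOXC10. By mean, HOXC10 (0.434 FPKM) was close to HOXC9, and HOXC6 (0.356 to 1.62 FPKM) and HOXC8 (0.205 to 1.73 FPKM) overlapped in range. HOXA9 (chr18:45406940-45411913) had 1.28 ± 1.36 FPKM, and like HOXA10 beside it had an SD larger than its mean. These 3 are not counted among the 29.

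The genes differed widely in how far pigs of one stage varied. HOXD8 was among the steadiest genes: its biological coefficient of variation between pigs of a stage, the spread that edgeR estimates beyond counting error, was 0.141, and 9.39% of the 19470 tested loci had a lower one. HOXD3 followed at 0.148 (12.7% lower), and the median of all tested loci was 0.237. The 6 tested HOXB loci ranged from 0.188 (HOXB3) to 0.380 (HOXB4). HOXA10 stood at 1.48 and HOXC10 at 1.52, with 99.3% and 99.4% of tested loci lower, and HOXA9 at 0.857 (95.9% lower).

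**Figure D2:**
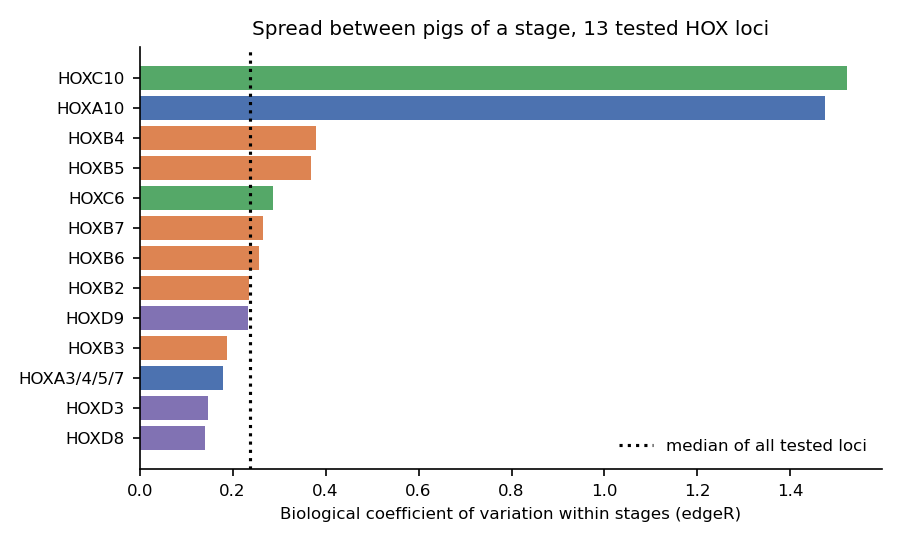
Biological coefficient of variation within stages for the 13 tested HOX loci, coloured by cluster, with the median of all tested loci (0.237) as a dotted line. HOXA10 (1.48) and HOXC10 (1.52) stand apart from the other 11, which lie between 0.141 and 0.380.

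HOXA10 was read in all 3 pigs at 120, 180 and 360 days. At 60 and at 240 days it was read in 1 pig and hardly at all in the full sibs. Its values were 0, 0.294 and 0 FPKM at 60 days, 1.10, 0.283 and 0.452 at 120 days and 0.964, 1.57 and 0.830 at 180 days. They were 3.38, 0.0392 and 0.00877 FPKM at 240 days, 0, 0.0186 and 0.112 at 300 days and 0.145, 0.154 and 0.303 at 360 days. All 3 pigs at 180 days, each low in Y-linked genes, were above every pig at 60, 300 and 360 days. At 240 days 1 pig was the highest of the study while its sibs were near 0. In counts, that pig had 1388 reads of HOXA10 and the sibs 18 and 4.

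HOXC10 had a similar but sparser pattern. Its values were 0, 0.0399 and 0.0380 FPKM at 60 days, 0.598, 0.770 and 0.0556 at 120 days and 2.18, 0.780 and 0.0414 at 180 days. They were 3.24, 0 and 0 FPKM at 240 days, 0 in all 3 pigs at 300 days and 0.0265, 0.0267 and 0.0183 at 360 days. The gene was above 0.5 FPKM in 5 of 18 libraries, all from 120 to 240 days, and had 0 counts in 6. A count of 0 allows up to 3 counts, which in those 6 libraries stand for 0.0368 to 0.0399 CPM, counting error alone considered. Against this, pig 1 at 240 days had 603 counts (7.97 CPM).

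HOXD10, the remaining gene of group 10, was highest in the same library: 0.404 FPKM in pig 1 at 240 days against 0 to 0.192 FPKM in the other 17. HOXD11 (0.328 FPKM) and HOXA11 (0.420 FPKM) were also highest there, against at most 0.0792 and 0.0281 FPKM in the other libraries, as were HOXD9 (2.14 FPKM) and HOXD3 (4.67 FPKM). HOXA9 did not have its highest value there (2.79 FPKM). It was 4.29, 1.02 and 1.87 FPKM at 120 days and 2.97, 3.72 and 2.23 at 180 days (each pig low in Y-linked genes). It was at most 0.846 FPKM at 60, 300 and 360 days. So HOXA9 and HOXA10 shared their low stages, and in both the pigs at 240 days were split, 1 high and the rest low.

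**Figure D3:**
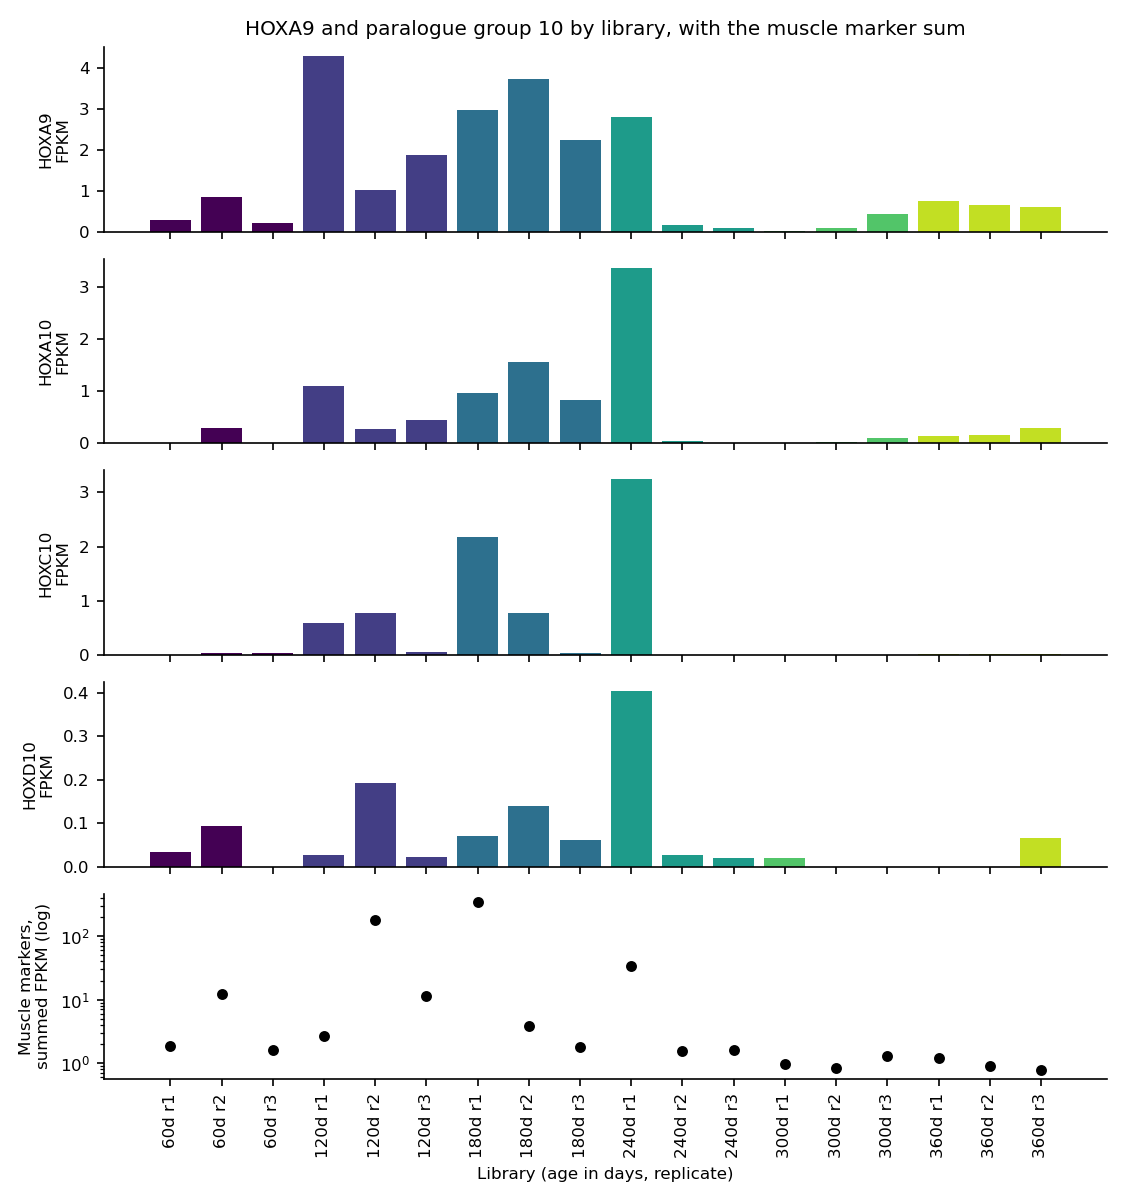
FPKM of HOXA9 and of the 3 loci of paralogue group 10 in each of the 18 libraries (d, days; r, replicate), coloured by stage, above the summed FPKM of the 5 measured skeletal muscle markers on a log axis. HOXA10, HOXC10 and HOXD10 are highest in pig 1 at 240 days, and the 3 highest muscle sums are those of pig 2 at 120 days, pig 1 at 180 days and pig 1 at 240 days.

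The muscle markers moved in part with HOXC10. The 3 libraries with the highest muscle sums (341, 177 and 33.3 FPKM) had 2.18, 0.770 and 3.24 FPKM of HOXC10 and 0.964, 0.283 and 3.38 FPKM of HOXA10. Pig 2 at 180 days, with a muscle sum of 3.85 FPKM, had 0.780 FPKM of HOXC10 and 1.57 FPKM of HOXA10, and pig 1 at 120 days, with a muscle sum of 2.66 FPKM, had 0.598 and 1.10 FPKM. Of the 5 libraries above 0.5 FPKM of HOXC10, 3 were among the 7 low in Y-linked genes and 2 among the other 11, which included the highest. The part of muscle tissue, of the exact place of sampling or of litter in these values was not tested. In bulk tissue, fewer cells of a type and less RNA per cell cannot be told apart.

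A second library stood out in the other direction. Pig 1 at 300 days had the lowest value of 18 for the locus of HOXA3 to HOXA7 (1.58 FPKM, others 2.09 to 4.20), HOXC6 (0.356 FPKM, others 0.754 to 1.62) and HOXB8 (0.0640 FPKM). HOXA9 (0.0133 FPKM), HOXC8 (0.205 FPKM) and HOXC9 (0.0786 FPKM) were lowest there too. The same library had the highest HOXB4 (2.80 FPKM) and HOXB5 (1.02 FPKM), and HOXD8 was 7.64 FPKM there, the fourth highest of 18. In FPKM, pig 3 at 360 days was lowest for 4 of the 13 tested loci (HOXB3, HOXB5, HOXD3 and HOXD8) and highest for HOXB2. In CPM with the scaling used in the tests (TMM), it was lowest for none of these 4. HOXD8 was 34.3 CPM there against a minimum of 29.4, and HOXD3 74.4 against 70.4. HOXB3 was 15.7 CPM against a minimum of 15.4, and HOXB5 0.909 against 0.785. HOXB2 was highest in pig 3 at 360 days on that scale too (5.74 CPM). That library stood apart over all loci too: its 10 largest loci took 19.0% of the counts, against 9.37% to 14.3% in the other 17, and the study lists it with the lowest share of mapped reads. Without it, HOXD3 still differed among stages (edgeR adjusted p = 0.0313), and the part of library quality in the other values was not tested.

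The comparison of the 6 stages asks which HOX loci changed as the fat developed. With edgeR's quasi-likelihood test over all 18 libraries, 1 of 13 HOX loci, HOXD3, differed among the 6 stages at an adjusted p of at most 0.05, which is near the share over all tested loci of 6.57%. At an unadjusted p of at most 0.05 there were 6 of 13 (25.9% of all tested loci): HOXD3, HOXC10, the locus of HOXA3 to HOXA7, HOXB3, HOXB5 and HOXB7.

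HOXD3 was at 2.98, 3.27 and 3.26 FPKM at 60 days, 2.61, 2.56 and 2.74 at 120 days and 2.88, 3.35 and 2.53 at 180 days. It was at 4.67, 3.67 and 4.09 FPKM at 240 days, 3.68, 2.72 and 3.51 at 300 days and 3.20, 3.67 and 2.30 at 360 days. The pigs at 240 days were thus high and those at 120 days low, although in FPKM 1 pig at 180 days and 1 at 360 days fell below all pigs at 120 days. In CPM with the scaling used in the tests (TMM), the pig at 180 days was still below (70.4 against 70.9 to 76.3). On that scale the pig at 360 days (74.4 CPM) lay within the range of 120 days. The difference among stages had an adjusted p of 0.0451 by edgeR (unadjusted p = 0.00268). From 180 to 240 days the log2 fold change was 0.54 (SE 0.14, edgeR adjusted p = 0.26), and at 120 days against the mean of the other 5 stages -0.33 (SE 0.11, edgeR adjusted p = 0.131). The call was lost when any 1 of 12 libraries was left out (pigs 1 to 3 at 60, 120 and 240 days, pig 1 at 180 and at 360 days, pig 3 at 300 days), with edgeR adjusted p-values from 0.0313 to 0.122 over the 18 fits. It was also lost in the 11 libraries high in Y-linked genes (edgeR adjusted p = 0.223) and without the 3 libraries highest in muscle markers (edgeR adjusted p = 0.228).

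No HOX locus was called between adjacent stages at an adjusted p of at most 0.05 and a log2 fold change of at least 1 in size. The share called over all loci by edgeR was 0.231% for 120 against 60 days and 0% for the other 4 pairs of stages. At an unadjusted p of at most 0.05, edgeR gave 2 of 13 HOX loci for 120 against 60 days (13.3% of all loci), 1 for 180 against 120 days (12.4%), 3 for 240 against 180 days (9.33%), 5 for 300 against 240 days (3.78%) and 4 for 360 against 300 days (9.08%). DESeq2 called 1, HOXC10, for 300 against 240 days (0.098% of all loci by DESeq2) and for 360 against 300 days (0.34%). It called 0 for 120 against 60 days (1.71%), 180 against 120 days (1.29%) and 240 against 180 days (0.577%). Since all 3 pigs at 300 days had no HOXC10 count, the fitted fold changes of those pairs are no bound and are not given. The call for 300 against 240 days rests on 1 pig (603, 0 and 0 counts at 240 days). That for 360 against 300 days rests on 5, 6 and 4 counts at 360 days.

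Of the 5 loci at 300 against 240 days, HOXA10, HOXC10, the locus of HOXA3 to HOXA7 and HOXD3 were lower at 300 days. HOXB6 was higher. For HOXA10 and HOXC10, the higher level at 240 days was that of pig 1 alone. Its sibs had at most 0.0392 FPKM of HOXA10 and 0 of HOXC10, against at most 0.112 and 0 at 300 days. The HOXA3 to HOXA7 locus was at 3.50, 2.22 and 3.0 FPKM at 240 days and at 1.58, 2.09 and 2.51 at 300 days, with 2.47, 3.43 and 2.55 FPKM at 360 days. Stage means were thus lowest at 300 days (2.06 ± 0.467 FPKM, n = 3), but the pigs overlapped with both neighbouring stages. The log2 fold change was -0.49 (SE 0.18, edgeR adjusted p = 1) from 240 to 300 days and 0.51 (SE 0.18, edgeR adjusted p = 0.461) from 300 to 360 days.

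**Figure D4:**
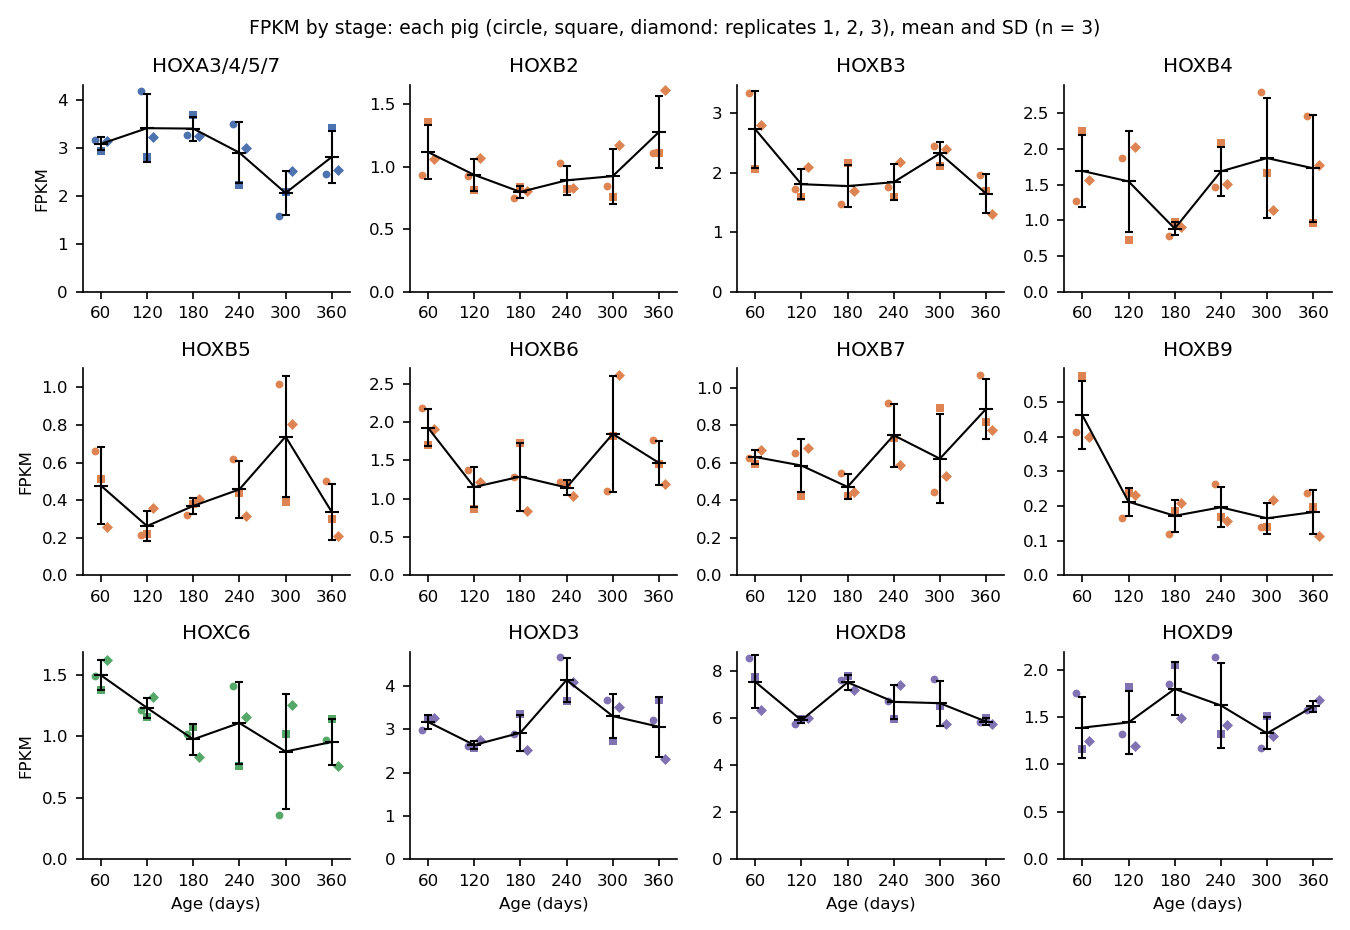
FPKM by age in days for 11 tested HOX loci and HOXB9, with each pig as a symbol and the mean and SD of the 3 pigs of a stage in black. The 3 pigs at 60 days are above all others for HOXB9, and HOXD3 has its highest mean (4.14 FPKM) at 240 days.

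At 60 days, the youngest stage, no HOX locus was called against the mean of the other 5 stages (2.18% of all loci by edgeR), and 1 of 13 had an unadjusted p of at most 0.05 (23.4% of all loci). DESeq2 called 0 as well (3.19% of all loci). The locus at an unadjusted p of at most 0.05 was HOXB3, at 3.35, 2.06 and 2.80 FPKM at 60 days against 1.3 to 2.46 elsewhere (median 1.75). Pig 2 fell within the range of the other stages. The log2 fold change was 0.43 (SE 0.14, edgeR adjusted p = 0.0780), and in the 11 libraries high in Y-linked genes, where 60 days is left with pig 2 alone, it turned to -0.05. HOXC6 was at 1.49, 1.38 and 1.62 FPKM at 60 days against 0.356 to 1.41 elsewhere, with a log2 fold change of 0.43 (SE 0.24, edgeR adjusted p = 0.289). HOXB6 was at 2.18, 1.70 and 1.91 FPKM against 0.844 to 2.61, with a log2 fold change of 0.39 (SE 0.21, edgeR adjusted p = 0.285).

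HOXB9, a gene of the thoracic level, lay under the filter and was singled out after its values had been seen. It was at 0.414, 0.575 and 0.398 FPKM at 60 days and at 0.113 to 0.263 FPKM in the other 15 libraries. It was the only one of the 29 loci with all pigs at 60 days above all other pigs, which held for 3.31% of all loci, and 0 of 29 had them all below (0.595%). In an edgeR fit with no filter on low values its log2 fold change was 1.20 (SE 0.24, adjusted p = 0.0128), and without pig 2 at 60 days the adjusted p was 0.124. HOXB8, its neighbour, was at 0.437, 0.508 and 0.275 FPKM at 60 days against 0.0640 to 0.328 elsewhere, a log2 fold change of 1.17 (SE 0.38, edgeR adjusted p = 0.101 with no filter). Both loci rest on few reads, 56 to 252 counts a library for HOXB9 and 17 to 120 for HOXB8. The share of all loci called with no filter is not given here, so the HOXB9 call cannot be set beside it.

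At 120 days, no HOX locus was called by edgeR against the mean of the other 5 stages (0.940% of all loci), and 4 of 13 had an unadjusted p of at most 0.05 (16.7% of all loci). HOXD3, HOXD8 and HOXB5 were lower and HOXC10 higher. HOXD8 was at 5.77, 5.97 and 5.99 FPKM at 120 days, close to the lowest values of other stages. Its log2 fold change was -0.22 (SE 0.10, edgeR adjusted p = 0.271). In FPKM, its stage mean was as low at 360 days (5.85) as at 120 days (5.91). HOXB5 was at 0.212, 0.218 and 0.356 FPKM at 120 days, against 0.210 (pig 3 at 360 days) to 1.02 FPKM elsewhere. Its log2 fold change was -0.81 (SE 0.35, edgeR adjusted p = 0.251). DESeq2 called 1, HOXC10 (1.97% of all loci). So did edgeR without pig 1 at 240 days (1.28% of all loci) and without the 3 libraries highest in muscle markers (1.25%). Both edgeR fits leave out the highest HOXC10 value (3.24 FPKM, pig 1 at 240 days), so their calls are not independent of that choice. The second also leaves out pig 1 at 180 days (2.18 FPKM) and pig 2 at 120 days (0.770 FPKM). With all libraries, mean HOXC10 was 0.474 FPKM at 120 days, below 0.9997 at 180 days and 1.08 at 240 days.

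Cell type markers moved at 120 days as well, and in part at 60 days. Of the fibroblast and progenitor markers, 3 of 8 were called higher by edgeR (DCN, COL1A1 and THY1), and their sum was 1380 to 2063 FPKM at 120 days against 283 to 1120 FPKM elsewhere. Of the endothelial markers, 0 of 5 were called, but CDH5, TIE1 and VWF were lower by less than the fold a call needs (log2 fold changes of -0.59, -0.61 and -0.55, edgeR adjusted p = 0.0250, 0.0236 and 0.0359), with a sum of 80.0 to 82.6 FPKM at 120 days against 90.3 to 127 FPKM elsewhere. Of the muscle markers, 0 of 5 were called and 5 were higher at an unadjusted edgeR p of at most 0.05. Their sum at 120 days was uneven (2.66, 177 and 11.6 FPKM), and the highest of all was 341 FPKM in pig 1 at 180 days. Of the adipocyte markers, 1 of 7, the leptin gene LEP, was called lower, by edgeR, both at 120 days (log2 fold change -2.40) and at 60 days (-3.26). At 60 days 1 of 5 endothelial markers, the receptor gene KDR, was called higher (log2 fold change 1.06). The other 4 went the other way, down to a log2 fold change of -0.57, and 1 of them had an unadjusted edgeR p of at most 0.05. The part of these cells in the HOX values at 60 and 120 days was not tested.

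**Figure D5:**
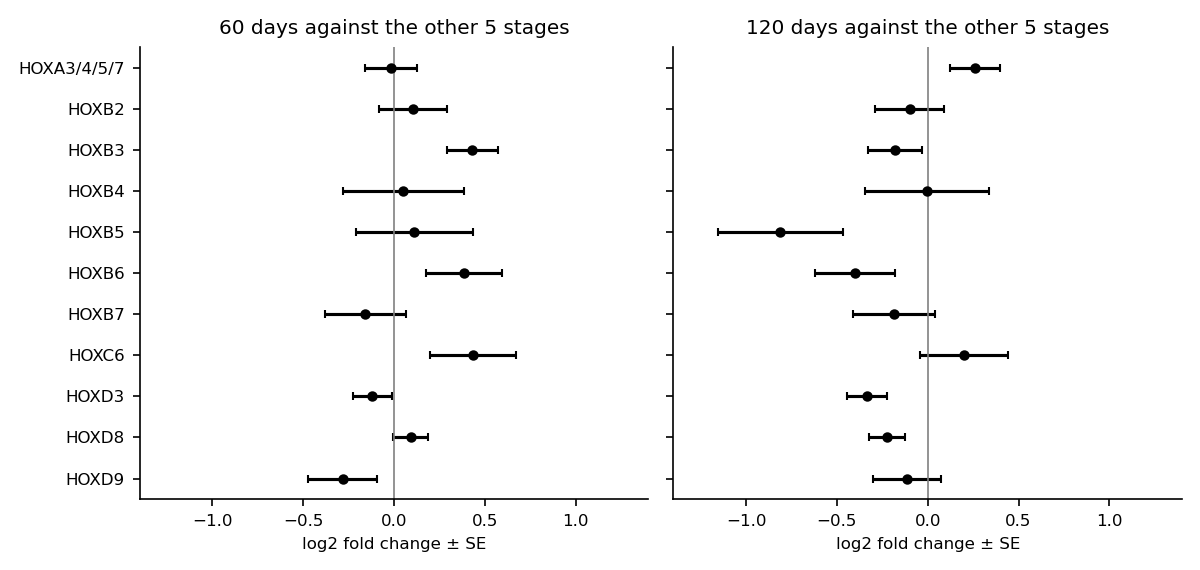
Log2 fold change with its standard error (edgeR) of 11 tested HOX loci at 60 days and at 120 days against the mean of the other 5 stages, with HOXA10 and HOXC10 left out because several libraries had 0 counts. HOXB3 (0.43) and HOXC6 (0.43) are highest at 60 days and HOXB5 (-0.81) lowest at 120 days, and none was called.

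Along age, no HOX locus was called as a linear trend (4.79% of all loci by edgeR), DESeq2 called 0 as well (5.82% of all loci), and 1 of 13 had an unadjusted p of at most 0.05 (29.4% of all loci). That locus was HOXB7, whose stage means were 0.632 ± 0.0370, 0.586 ± 0.140, 0.472 ± 0.0671, 0.748 ± 0.167, 0.623 ± 0.237 and 0.888 ± 0.160 FPKM (n = 3 each) from 60 to 360 days. Its log2 fold change per 300 days was 0.64 (SE 0.25, edgeR adjusted p = 0.0999). HOXC6 went the other way, from 1.5 ± 0.122 FPKM at 60 days to 0.953 ± 0.190 at 360 days, at -0.50 per 300 days (SE 0.25, edgeR adjusted p = 0.188). HOXD9 had no stage apart from the rest: its stage means lay between 1.33 ± 0.168 and 1.80 ± 0.280 FPKM, and its difference among stages had an edgeR adjusted p of 0.522.

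The partners of HOX proteins were transcribed at levels per length like those of the tested HOX loci, and none was called. Of 9 TALE genes, 8 were tested, with PBX2 (mean 7.45 FPKM) and MEIS2 (2.36) among the highest, and 0 of 8 were called in any of the 9 comparisons by edgeR. Among stages, 3 of 8 had an unadjusted p of at most 0.05, against 25.9% of all loci. The summed TALE level was 16.6 to 22.0 FPKM over the 18 libraries.

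Of the Polycomb genes, 22 were tested, led by RBBP4 (32.8 FPKM), CBX6 (9.20) and RBBP7 (7.03). PHF19, a subunit that guides PRC2 to chromatin, was called among stages (edgeR adjusted p = 0.0202), 1 of 22 against 6.57% of all loci. Of the trithorax genes and H3K27 demethylases, 8 were tested, led by ASH1L (11.2 FPKM), DPY30 (9.92) and RBBP5 (3.13), and ASH1L, a histone methyltransferase, was called among stages (edgeR adjusted p = 0.0499), 1 of 8 against 6.57% of all loci. EZH2, the catalytic subunit of PRC2, was low (0.214 to 1.41 FPKM) beside EZH1 (4.78 to 7.92 FPKM).

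Of the retinoic acid and CDX genes, 11 were tested, led by ALDH1A1 (21.7 FPKM), RXRA (7.49) and RXRB (3.65). RXRA, a nuclear receptor partner, differed among stages (edgeR adjusted p = 0.0341), 1 of 11 against 6.57% of all loci. CRABP2, a binding protein for retinoic acid, fell with age by 2.98 on the log2 scale per 300 days (SE 0.87, edgeR adjusted p = 0.0290), 1 of 11 against 4.79% of all loci. CDX1 and CDX2, which act on HOX genes in the embryo, were at most 0.189 and 0.0332 FPKM in any library. Of 10 tested positional factors outside the HOX clusters, TBX15 (4.05 FPKM), TBX18 (2.54) and SHOX2 (2.28) were the highest in level, and calls in this list are not reported here. The forelimb gene TBX5 (0.296 to 1.60 FPKM) was above the hindlimb gene TBX4 (at most 0.0826 FPKM) in level. The genes that flank the clusters (SKAP1, SKAP2, MTX2 and LNPK, means 1.71 to 5.91 FPKM) had 0 of 4 called by edgeR in any comparison, and 0 of 4 reached an unadjusted p of at most 0.05 among stages. The loci of the microRNAs MIR10A, MIR196A-1 and ssc-mir-196b-1 had at most 10, 6 and 8 counts in a library, too few for a comparison.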

How the data were processed

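RNA was sequenced from backfat of 18 pigs (6 stages of 3). Per the labels, the authors trimmed reads with Cutadapt (version 1.9), mapped them with Hisat2 (version 2.0.4) to Sscrofa11.1 (Ensembl 96) and assembled loci with StringTie (version 1.3.4). The FPKM values are those the authors deposited, normalized to length and library total. The counts, as deposited, are whole numbers that were not normalized, and the counter and its strand setting are not given in the sources used here.

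A locus entered the tests if 3 or more libraries reached 0.5 FPKM, which left 19470 of 27883. Counts were tested with edgeR (version 4.0.16; quasi-likelihood, TMM scaling), 1 fit over 18 libraries with 12 residual degrees of freedom, and Benjamini-Hochberg adjustment over all tested loci. Calls needed an adjusted p no higher than 0.05 and, except for any difference among stages, a log2 fold change of 1 or more in size. The trend treats age as a number and sibs as independent. Standard errors were derived from the fold change and its F statistic. The tests were also tried on simulated counts, which were drawn for independent libraries without litters.

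Alternatives were no filter, a filter of 1 FPKM in any library, scaling by median of ratios, DESeq2 (version 1.42.0), limma (version 3.58.1) with voom or with pseudocounts of 0.1 and 1 on log2 FPKM, a replicate block, the adjusted p alone, libraries of the compared stages alone, libraries with over 100 CPM of Y-linked genes and leaving out each library. The fit without the 3 libraries highest in muscle markers was chosen after seeing the data. The members and lists were chosen with earlier results of these data known. Named in full are HOX loci with a stage mean of at least 0.5 FPKM or a call, and, of other lists, the called genes and the 3 highest, except items not reported here. No sequences are shown.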

Additional observations from a re-analysis of the deposited data

How the results depend on the processing

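The number of HOX loci called as different among stages (1 by edgeR with all libraries) was 0 with no filter on low values, with limma at pseudocounts of 0.1 and 1, in the libraries high in Y-linked genes and without the 3 libraries highest in muscle markers, and 3 with DESeq2 (HOXD3, HOXC10 and the locus of HOXA3 to HOXA7). Leaving out each library gave 0 to 1, and without pig 1 at 240 days the locus called was HOXC10 in place of HOXD3 (edgeR adjusted p = 0.0187). Over all loci this comparison gave 1280 calls, against 4080 with DESeq2, 2096 with limma-voom, 104 in the libraries high in Y-linked genes and 575 to 1465 with 1 library left out.

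At 60 days against the other stages the count went from 0 to 1 with no filter (HOXB9), and along age from 0 to 1 with no filter (HOXB13, on at most 7 counts in a library). The share of all loci called with no filter is not given here, so these counts cannot be set beside it. DESeq2 gave 1 (HOXC10) in place of 0 for 300 against 240 days, resting on 1 pig. It gave 1 (HOXC10) for 360 against 300 days, on at most 6 counts a library, and for 120 days against the other stages. The latter count was also 1 without the 3 libraries highest in muscle markers, and 0 to 1 with each library left out. The edgeR fits that gave 1 leave out pig 1 at 240 days, the library highest in HOXC10. HOXB3 at 60 days reversed, to a log2 fold change of -0.053, in the libraries high in Y-linked genes. The 180 day stage has no library high in Y-linked genes, so its 2 comparisons could not be made there. The remaining counts of HOX loci were unchanged in the alternatives run. Of the 13 loci with the highest mean level, 12 to 13 stayed so with each library left out. The causes of these changes were not tested, and genes under 0.5 FPKM are limited by their counts.

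The replicate numbers do not pair the pigs: the mean correlation of residuals was 0.01 over 45 pairs with the same number and -0.01 over 90 others, and 7 of 18 libraries correlated best with their own number. With the replicate number as a block, the count of HOX loci called among stages was 0 (HOXD3, edgeR adjusted p = 0.0710).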
